A study of Mus musculus with 5 samples.

Results

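The proteasome subunit transcripts of the mouse nucleus accumbens were taken from a series of 2-colour arrays. Every spot counted as a member whose single gene symbol began with Psma, Psmb, Psmc, Psmd or Psme followed by a digit. This rule found 72 spots of 44 genes among the 44290 features of the value table, of which 32042 had 1 gene symbol, for 19087 genes. Of the 72 spots, 5 belong to Psmc3ip and Psme3ip1, which carry the symbols of partner proteins and are not proteasome subunits, and they are given apart. The other 67 spots covered 42 subunit genes: 12 spots of 8 Psma genes, 14 of 11 Psmb genes, 10 of 6 Psmc genes, 25 of 14 Psmd genes and 6 of 3 Psme genes. The word subunit follows the symbol here. Psmd5, Psmd9 and Psmd10, which encode assembly chaperones of the regulatory particle, are counted among the Psmd genes.

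The proteasome is the barrel-shaped protease that degrades proteins tagged with ubiquitin. Its core particle is a stack of rings, with the alpha subunits (Psma) as the outer rings that gate the entrance and the beta subunits (Psmb) as the inner rings that hold the proteolytic sites. A regulatory particle of ATPases (Psmc), which unfold the substrate, and of scaffold, receptor and deubiquitinating subunits (Psmd) caps the core, and the Psme genes encode activators that bind the core in its place. In neurons the proteasome is known for turning over synaptic proteins during plasticity.

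Each array compared the accumbens RNA of 1 cocaine-treated mouse with that of 1 saline-treated mouse, all of them male and of the C57BL6 background. Cocaine at 15 mg/kg or saline was given on days 2, 3 and 4 of a place preference protocol, in which a drug is paired with a compartment and the time later spent there is scored, and the cocaine-treated mice were those with a low score. Cocaine RNA carried the dye Cy5 on 3 arrays and Cy3 on 2. The cocaine labels of the first 2 Cy5 arrays differ only by a suffix, so these arrays may share an animal. The ages of the mice were not among the labels used.

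The values were deposited log2 ratios of the 2 channels, uncentred, and the treatment in the numerator is not stated. The ratios of the 5 arrays were taken to run in 1 direction between the treatments, which is a likely reading and not a stated one, so positive ratios lie on the numerator side and negative ratios on the denominator side. The array medians over all features were -0.69, -0.57 and -0.52 with cocaine in Cy5 and 0.53 and 0.60 with cocaine in Cy3. Spot brightness was recovered from the ratios themselves, and spots whose recovered log2 brightness exceeded 7.5 are called above background. Of the medium spiny neuron markers, 8 of the 8 with a spot were above background, among them Drd1, Drd2 and Ppp1r1b. So were 1 of 9 microglial, 1 of 10 endothelial, 0 of 5 choroid plexus and ependyma, 2 of 6 astrocyte and 2 of 5 oligodendrocyte markers. Less RNA of a transcript per cell and fewer cells of a type cannot be told apart in such tissue.

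Proteasome spots were often above background. Of the 67 subunit spots 28 (41.8%) were, against 11.1% of all features with 1 gene, and they covered 27 of the 42 genes. In the alpha rings these were Psma1, Psma2, Psma3, Psma5, Psma6 and Psma7, and Psma4 and Psma8, the latter a testis subunit, had no such spot. In the beta rings they were Psmb3, Psmb4, Psmb5, Psmb6, Psmb7 and Psmb10. All ATPases but Psmc3 had a spot above background. Of the 14 Psmd genes, 7 did: the scaffold subunit Psmd1, the lid subunits Psmd3, Psmd7, Psmd11 and Psmd12, the ubiquitin receptor Psmd4 and the deubiquitinase Psmd14. Psmd2, Psmd5, Psmd6, Psmd8, Psmd9, Psmd10 and Psmd13 did not. The activators Psme1, Psme3 and Psme4 were all above background, and 0 of the 5 spots of the partner genes were.

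A transcript may be present although its spot was not above background. Probes of 1 gene differed in this respect: 18 genes had several spots, 13 of these had at least 1 above background, and 12 of the 13 also had a spot that was not. Psmd9, for example, had 3 spots and 0 above background, while Psmb3 had both of its spots above it. The count moved with the level chosen, from 33 of 67 spots at a log2 brightness of 7 (18.9% of gene features) to 22 at 8 (7.51% of gene features). The recovery also placed some bright spots too low in simulated signals, and the spot of Psmb1, at a recovered log2 brightness of 6.55, had a ratio of -1.91 on cocaine-in-Cy5 replicate 1, lower than the median of -1.02 for the features of brightness 6.5 to 7.5 there.

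The catalytic subunits form a pair of sets. Psmb5, Psmb6 and Psmb7 carry the proteolytic sites of the standard proteasome, and Psmb8, Psmb9 and Psmb10 replace them in the immunoproteasome, which is induced by interferon and made in immune cells. All of the standard set had a spot above background, at recovered log2 brightness 8.60 for Psmb5, 9.20 for Psmb6 and 7.95 for Psmb7. Of the immunoproteasome set Psmb10 did, at 8.70, and neither the 2 spots of Psmb8, at 6.35 and 6.40, nor the spot of Psmb9, at 6.35, did. This split was the same under each of the 3 other recoveries tried and at a threshold of 7, while at 8 Psmb7 too was not above the level. Probes differ in their response, so these values are not compared as transcript levels. Psmb11, the thymus subunit, was not above background on either of its 2 spots, at 6.1 on both.

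The promoters of members of both sets are shown because the sets are known to be driven differently, the standard subunits through the antioxidant-type element bound by the factor Nfe2l1 and the immunoproteasome by interferon-responsive factors. The windows run from 250 bases before to 50 after the gene start and are from RefSeq, build GRCm38.p6, written 5′ to 3′ on the strand of the gene. Capitals mark TGACNNNGC, the core of the antioxidant-type element, read on both strands.
Psmb5 promoter, chr14:54617946-54618245, minus strand: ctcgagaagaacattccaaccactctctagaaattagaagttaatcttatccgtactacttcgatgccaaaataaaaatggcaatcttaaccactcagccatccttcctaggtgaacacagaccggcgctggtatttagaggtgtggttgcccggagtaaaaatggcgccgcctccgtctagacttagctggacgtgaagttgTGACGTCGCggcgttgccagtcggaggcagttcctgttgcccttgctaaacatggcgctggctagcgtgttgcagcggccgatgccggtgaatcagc
Psmb6 promoter, chr11:70525107-70525406, plus strand: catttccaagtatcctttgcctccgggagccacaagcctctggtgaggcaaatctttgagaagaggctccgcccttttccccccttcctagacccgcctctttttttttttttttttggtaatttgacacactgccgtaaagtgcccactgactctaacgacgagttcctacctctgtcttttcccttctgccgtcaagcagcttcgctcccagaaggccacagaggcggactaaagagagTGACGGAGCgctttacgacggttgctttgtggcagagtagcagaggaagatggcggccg
Psmb8 promoter, chr17:34197945-34198244, plus strand: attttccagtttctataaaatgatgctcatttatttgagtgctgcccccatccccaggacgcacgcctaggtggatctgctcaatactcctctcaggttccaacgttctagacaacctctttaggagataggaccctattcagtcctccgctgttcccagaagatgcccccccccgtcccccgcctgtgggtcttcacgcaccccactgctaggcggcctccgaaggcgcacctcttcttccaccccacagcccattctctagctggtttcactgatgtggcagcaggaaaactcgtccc
Psmb9 promoter, chr17:34187281-34187580, minus strand: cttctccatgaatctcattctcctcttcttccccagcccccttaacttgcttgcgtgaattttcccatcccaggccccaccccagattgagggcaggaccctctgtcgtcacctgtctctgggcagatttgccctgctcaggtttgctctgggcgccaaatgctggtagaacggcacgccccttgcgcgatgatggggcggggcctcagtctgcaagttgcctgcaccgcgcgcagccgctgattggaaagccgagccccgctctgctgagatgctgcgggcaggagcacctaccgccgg
The motif was found once each in the windows of Psmb5 and Psmb6 and was not found in those of Psmb8, Psmb9 and Psmb10, the last not printed. Psmb7 was not among the windows used here. In all, 37 windows matched 35 of the 42 subunit genes, and 6 of them (16.2%) held it, those of Psmb5, Psmb6, Psmc6, Psmd12, Psmd9 and Psme4, against 12.4% of the 32851 windows in the table. A core of interferon-stimulated response elements, GAAA repeated after any pair of bases and read on both strands, was in 4 of the 37 windows (10.8%), those of Psmb3, Psmd4, Psmd9 and Psme1, and in 3.44% of all windows. It was not found in the windows of Psmb8, Psmb9 and Psmb10, nor in those of Psmb5 and Psmb6. Matches of the 2 motifs overlapped in 0 of the 37 windows and in 0 of all windows. A match is a run of letters and no evidence of binding.

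The comparison between the treatments asked whether subunit transcripts differed in mice that had received cocaine and scored low. No subunit spot passed the threshold. In limma's fit of treatment and dye orientation, 0 of 67 spots had an adjusted p under 0.05 and 0 had an unadjusted p under 0.05. Over all 43790 features the counts were 0 (0%) and 998 (2.28%), and the smallest adjusted p was 0.731. With array weights in the fit, whose estimate did not converge, 15 of the 67 spots had an unadjusted p under 0.05, against 17% of all features, and again 0 passed. The number of arrays limits the precision: the 28 subunit spots above background had a median standard error of 0.31 on the log2 scale, and the 95% interval stayed within a 2-fold difference for 6 of them. For the other subunit spots above background a 2-fold difference lay within the interval. Among the 3549 gene features above background the interval stayed within a 2-fold difference for 604.

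The deposited ratios of the subunits lay mostly on the denominator side, as those of bright spots did in general. The treatment coefficient was negative for 54 of 67 subunit spots, against 59.4% of all features. For the spots above background it was negative for 28 of 28, against 99.7% of the gene features above background. Their median was -0.45, and that of the gene features above background was -0.49. The 39 subunit spots not above background had a median of -0.06. By stem the medians over all spots were -0.24 for Psma, -0.27 for Psmb, -0.26 for Psmc, -0.12 for Psmd and -0.22 for Psme, beside -0.02 for all features and -0.09 for the spots of the partner genes. The share of spots above background was 50% in Psma, Psmb, Psmc and Psme, and 28% (7 of 25) in Psmd.

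**Figure D1:**
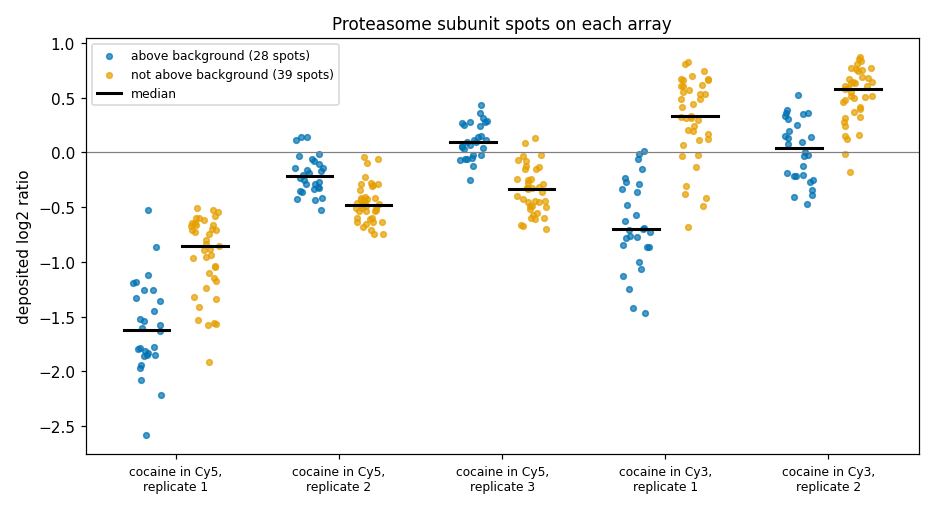
Deposited log2 ratio (y axis) of the 67 proteasome subunit spots on each of the 5 arrays (x axis), in blue the 28 spots above background and in orange the 39 not above it, with black bars for the medians. The blue medians run from -1.62 on cocaine-in-Cy5 replicate 1 to 0.09 on replicate 3, and 31 of the 39 orange spots change sign with the dye orientation. So do 24467 of the 28493 gene features not above background, from negative with cocaine in Cy5 to positive with cocaine in Cy3.

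The arrays disagreed on the size and sign of the shift. For the 28 subunit spots above background the median ratio was -1.62, -0.22 and 0.09 with cocaine in Cy5 and -0.70 and 0.04 with cocaine in Cy3. The gene features above background gave -1.60, -0.17 and 0.17, and -0.72 and -0.17, on the same arrays. The denominator side thus rested mainly on the first array of each orientation, as the plot of ratios by array shows. Without cocaine-in-Cy5 replicate 1 the median of all 67 spots was -0.04 in place of -0.23, and that of the 28 was -0.20. Subunits on the denominator side on all 5 arrays numbered 3 of 67, Psma7, Psmb3 (spot 12713) and Psmd8, against 1.5% of all features and 5.33% of the gene features above background, and 0 were on the numerator side on all 5.

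Among the alpha subunits the smallest p belonged to Psma7, whose ratios were -1.26, -0.17 and -0.03 with cocaine in Cy5 and -1.0 and -0.27 with cocaine in Cy3. All 5 arrays were negative, the first of each orientation most so. The coefficient was -0.56 with a standard error of 0.24 (limma adjusted p 0.731). The bright spot of Psma2 (32733) gave -1.57, -0.11 and 0.36, then -1.47 and -0.41, with a coefficient of -0.69 and a standard error of 0.35. Here the third array was positive and the other 4 negative. A spot of Psma3 (42750) that was not above background gave -0.84, -0.31 and -0.32, then -0.13 and 0.24. It was negative with cocaine in Cy5, and 1 of its 2 cocaine-in-Cy3 values was positive.

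Both spots of Psmb3, a non-catalytic beta subunit, were above background and can be set side by side. Spot 21424 gave -0.52, 0.11 and 0.25 with cocaine in Cy5 and -1.24 and -0.39 with cocaine in Cy3, and spot 12713 gave -1.54, -0.06 and -0.05, then -0.69 and -0.19. Their coefficients, -0.44 and -0.49, with standard errors of 0.18 and 0.28, differed by less than either error, while on cocaine-in-Cy5 replicate 1 and on cocaine-in-Cy3 replicate 1 the spots lay far apart. Psmb4, another non-catalytic subunit, gave -1.19, -0.29 and 0.27, then -1.13 and -0.12, and a coefficient of -0.52 with a standard error of 0.27. As for both spots of Psmb3, the third cocaine-in-Cy5 array was the highest.

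The standard catalytic subunits shared their lowest array, cocaine-in-Cy5 replicate 1. Psmb5, the chymotrypsin-like site, gave -1.45, -0.41 and -0.13 with cocaine in Cy5 and -0.73 and 0.30 with cocaine in Cy3. Psmb6, the caspase-like site, gave -1.12, -0.33 and 0.15, then -0.78 and 0.08. Psmb7, the trypsin-like site, differed on the arrays with cocaine in Cy3: it gave -1.61, -0.53 and -0.06, then 0.02 and 0.52. It was thus negative with cocaine in Cy5 and positive with cocaine in Cy3, as were 105 of the 3549 gene features above background. The 3 coefficients were -0.44, -0.39 and -0.23, with standard errors of 0.27, 0.24 and 0.26, and for none did the 95% interval exclude 0.

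The immunoproteasome subunit Psmb10 gave -0.87, -0.16 and -0.07 with cocaine in Cy5 and -0.77 and 0.25 with cocaine in Cy3, a coefficient of -0.31 with a standard error of 0.21. Its lowest array was again cocaine-in-Cy5 replicate 1. The 2 spots of Psmb8 gave -0.62, -0.43 and -0.15, then 0.49 and 0.65, and -0.71, -0.61 and -0.45, then 0.55 and 0.81. Psmb9 gave -0.74, -0.54 and -0.25, then 0.32 and 0.68. These dim spots were negative on all 3 cocaine-in-Cy5 arrays and positive on both cocaine-in-Cy3 arrays, as were 32 of the 67 subunit spots and 80% of all features, and their coefficients were 0.08, 0.04 and -0.01.

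Of the ATPases, Psmc6 had the 2 smallest p. Its spot above background (38462) gave -1.86, -0.27 and 0.07 with cocaine in Cy5 and -1.06 and -0.02 with cocaine in Cy3, a coefficient of -0.62 with a standard error of 0.35, and the dimmer spot 32981 gave -1.24, -0.29 and 0.08, then -0.68 and -0.18, a coefficient of -0.46 with a standard error of 0.22. The 2 spots had the same order of arrays. Psmc4 (spot 11112) followed with -1.81, -0.31 and 0.05, then -0.33 and 0.09. On every ATPase spot above background cocaine-in-Cy5 replicate 1 was the lowest array.

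In the Psmd group the 3 spots with the smallest p were all not above background, so their ratios are those of dim spots. Psmd9, an assembly chaperone, gave -0.70, -0.68 and -0.60 on spot 14551 with cocaine in Cy5 and 0.74 and 0.87 with cocaine in Cy3. Psmd7 (spot 35368) gave -0.90, -0.60 and -0.31, then 0.25 and 0.28. Both changed sign with the dye orientation. Psmd8, a lid subunit, gave -1.41, -0.34 and -0.07, then -0.41 and -0.01, and was negative on all 5 arrays. The widest span among all subunits was that of Psmd3, at -2.58, -0.25 and 0.03, then -0.57 and 0.19, with an interval of the coefficient from -1.77 to 0.65. Psmd3, like Psme1, Psme3 and the trend-removed spots described further on, was chosen after its values were seen. The 67 coefficients ran from -0.72 for Psma1 to 0.08.

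Among the activators, Psme4, a large nuclear activator, had the 3 smallest p. Its spot above background (12241) gave -1.52, -0.20 and 0.29 with cocaine in Cy5 and -0.85 and -0.34 with cocaine in Cy3, a coefficient of -0.54 with a standard error of 0.30. The dim spots 19174 and 11205 gave -0.51, -0.51 and -0.57, then 0.66 and 0.64, and -0.58, -0.71 and -0.67, then 0.41 and 0.61. The dim spots changed sign with the orientation and the bright one did not. Psme1, a subunit of the interferon-induced activator ring, gave -1.26, 0.14 and 0.32, then -0.71 and -0.25, and the nuclear activator Psme3 gave -1.83, -0.14 and 0.28, then -0.62 and -0.20. Both had the array order of the bright spot of Psme4, lowest on cocaine-in-Cy5 replicate 1 and highest on replicate 3.

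**Figure D2:**
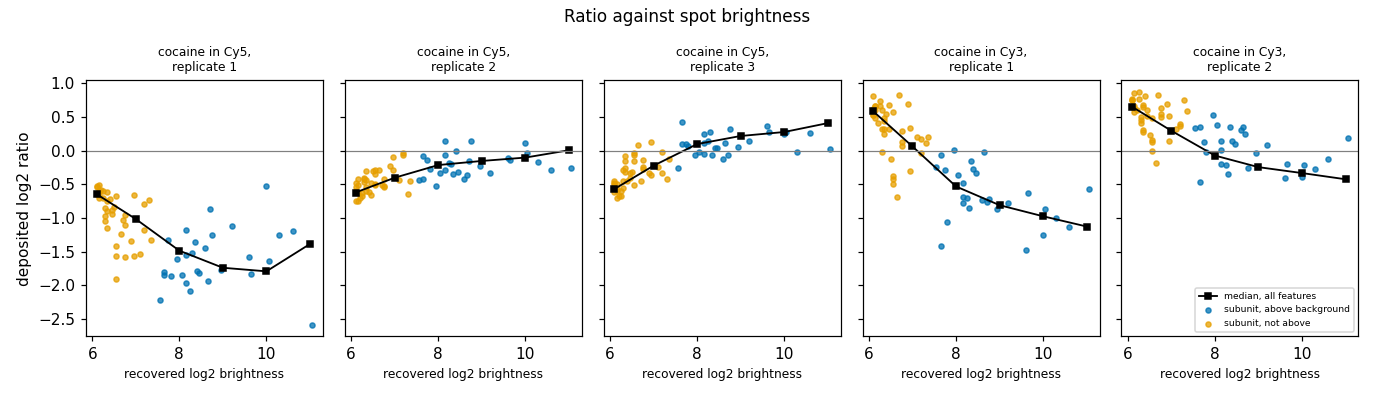
Deposited log2 ratio (y axis) against recovered log2 brightness (x axis) on each array, with the subunit spots above background in blue, those not above it in orange, and black squares for the median of all features in 6 brightness classes, drawn near the class centres. The subunit spots scatter around the black line. Up to the class around 10 that line falls with brightness on 3 arrays and rises on 2. On cocaine-in-Cy5 replicate 1 it turns back in the brightest class. On cocaine-in-Cy3 replicate 2 the class medians of the subunit spots lie above it in every class over a log2 brightness of 6.5. On cocaine-in-Cy5 replicates 2 and 3 they lie below it in each of these classes.

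On each array the ratio of a spot moved with its brightness, and the subunits moved in the same direction. On cocaine-in-Cy5 replicate 1 the median of all features went from -0.645 in the class below a log2 brightness of 6.5 to -1.79 in the class around 10, and that of the subunit spots from -0.70 to -1.57. On cocaine-in-Cy3 replicate 1 it went from 0.585 to -0.97 for all features and from 0.53 to -1.0 for the subunits. On cocaine-in-Cy5 replicate 3 the trend ran the other way, from -0.57 to 0.28 and from -0.47 to 0.28. Cocaine-in-Cy5 replicate 2 gave -0.62 to -0.10 for all features and -0.54 to -0.11 for the subunits. Cocaine-in-Cy3 replicate 2 gave 0.65 to -0.33 and 0.64 to -0.27. On that array the subunit median was above that of all features in every class over a log2 brightness of 6.5. On cocaine-in-Cy5 replicates 2 and 3 it was below that of all features in each of these classes. On the remaining arrays the side varied between classes. From dim to bright, these classes held 17, 15, 6, 5 and 2 subunit spots. How far the trend is technical was not tested. It was removed from each array with a loess curve over all features, and the fit was repeated.

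With the brightness trend removed, still no subunit spot passed the threshold. The counts were 0 of 67 subunit spots and 0 (0%) of 43790 features, with a smallest adjusted p of 0.673 in limma. At an unadjusted p under 0.05 there were 12 subunit spots, against 2936 features (6.7%). Of the 12, 10 lay on the numerator side, where 2.35% of all features had such a p, and 2 on the denominator side, where 4.36% did. Of these 12, 5 were above background, out of 28, while 14.3% of the gene features above background had such a p. The errors were smaller: the median standard error of the 28 spots was 0.08, and the 95% interval of all 28 stayed within a 2-fold difference. So did that of 3520 of the 3549 gene features above background. These errors leave out the uncertainty of the curve and of the recovered brightness.

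**Figure D3:**
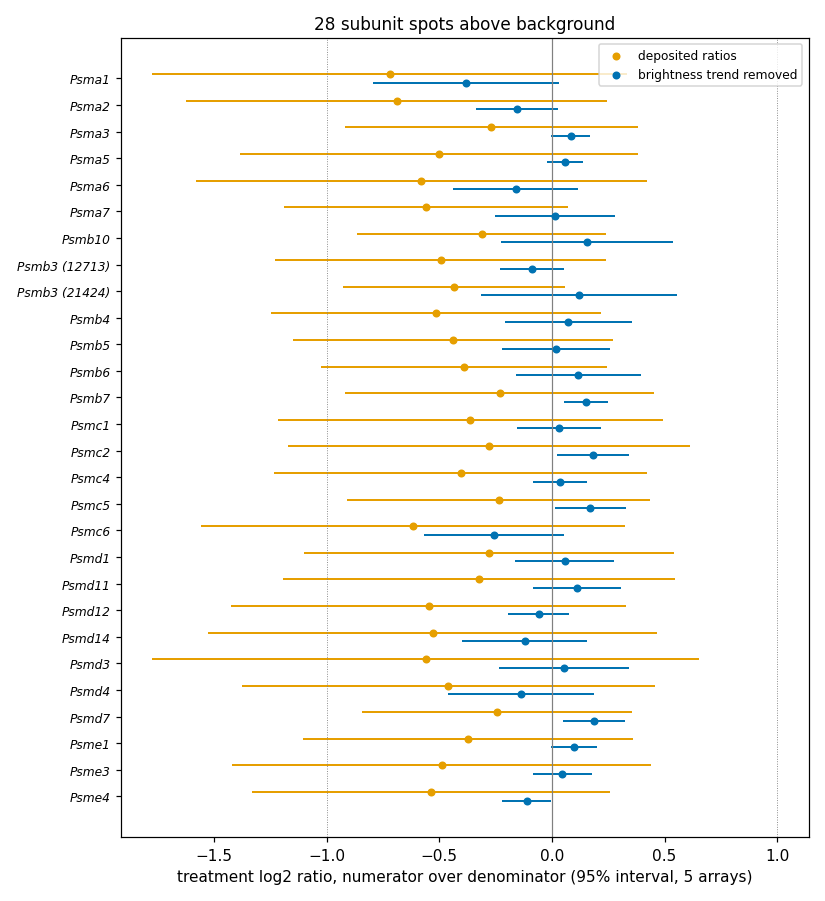
Treatment log2 ratio (x axis, dot) with its 95% interval (bar) from 5 arrays for the 28 subunit spots above background, from the deposited ratios in orange and with the brightness trend removed in blue; dotted lines mark a 2-fold difference. All orange dots are negative, with a median of -0.45, and the blue dots lie between -0.38 and 0.19 with a median of 0.05.

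The side on which the subunits lay changed with this step. After it, 43 of 67 subunit spots had a positive coefficient, against 49.5% of all features, and 19 of the 28 above background, against 37.8% of the gene features above background. The median of the 28 was 0.05, and that of the gene features above background was -0.04. With 1 array left out in turn, from 15 to 20 of the 28 were positive, the lowest count both without cocaine-in-Cy5 replicate 1 and without cocaine-in-Cy3 replicate 2. The share of the gene features above background that was positive then ran from 34.6% to 45.4%. It was 45.4% without cocaine-in-Cy5 replicate 1 and 38.4% without cocaine-in-Cy3 replicate 2. Cell type markers above background lay on both sides in the trend-removed fit of all arrays. The median was 0.115 for the 8 medium spiny neuron genes and 0.17 for the 1 microglial gene. It was -0.17 for the 2 astrocyte genes, -0.08 for the 2 oligodendrocyte genes and -0.31 for the 1 endothelial gene. Their part in the side of the subunits was not tested. By stem, the medians of the spots above background were -0.07 for Psma, 0.12 for Psmb, 0.04 for Psmc, 0.05 for Psmd and 0.05 for Psme. The single coefficients ran from -0.38 to 0.08 in Psma, from -0.09 to 0.16 in Psmb, from -0.26 to 0.18 in Psmc, from -0.14 to 0.19 in Psmd and from -0.11 to 0.10 in Psme. With the curve drawn over the gene features above background only, 19 of the 28 were again positive, against 49.6% of those features.

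Of the stems, Psma had the widest range, which rested on Psma1. In the alpha rings Psma1 was lowest, with trend-removed ratios of -0.54, 0.21 and 0.43 with cocaine in Cy5 and -1.07 and -0.53 with cocaine in Cy3, and a coefficient of -0.38 with a standard error of 0.16. Psma3 (spot 2089) was positive on all 5 arrays, at 0.01, 0.13, 0.07, 0.10 and 0.09, with a coefficient of 0.08 and a standard error of 0.03. Its values differed little between arrays, and they were small. Positive on all 5 arrays were 3 subunit spots, Psma3 (2089), Psmb8 (523) and Psmc5 (30511), against 2.2% of all features, and 2 of the 28 above background, against 1.27%. In the beta rings Psmb7 gave -0.22, -0.28 and -0.12, then 0.48 and 0.54, so that its coefficient of 0.15 (standard error 0.04, limma unadjusted p 0.00983, adjusted p 0.673) stood for values of opposite sign in the dye orientations. Psmb5 and Psmb6 had coefficients of 0.02 and 0.12, with standard errors of 0.10 and 0.11. Psmb10 gave 0.67, 0.02 and -0.24, then -0.08 and 0.41, with a coefficient of 0.16 and a standard error of 0.15, and thus overlapped between the orientations.

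The 5 subunit spots above background with an unadjusted p under 0.05 were Psmb7, Psmc2 (32162), Psmc5 (30511), Psmd7 (27246) and Psme4 (12241), the last on the denominator side. Among the gene features above background 3.72% had such a p with a positive coefficient and 10.6% with a negative one. With 1 array left out, the count on the numerator side ran from 0 of 28 without cocaine-in-Cy3 replicate 2 to 6 without cocaine-in-Cy5 replicate 1. In these fits 2326 and 3720 of the 43790 features, in that order, had such a p on either side. The features were not counted by side there. The 7 other subunit spots with such a p in the fit of all 5 arrays were not above background. Toward the numerator lay Psma4 (6824), both spots of Psmb8, Psmc5 (11776), Psmd7 (20193) and Psmd9 (14551), and toward the denominator Psmc6 (32981). Psmc5 gave 0.25, 0.36 and 0.02 with cocaine in Cy5 and 0.05 and 0.21 with cocaine in Cy3, positive on all 5 arrays, with a coefficient of 0.17 and a standard error of 0.06 (limma adjusted p 0.673). Its dimmer spot (11776) had a coefficient of 0.24, also positive, but values of opposite sign in the dye orientations. Psmd7 gave 0.11, -0.14 and -0.19, then 0.43 and 0.46, and Psmc2 gave -0.42, -0.18 and -0.05, then 0.66 and 0.51. For these last 2 the cocaine-in-Cy3 arrays were the higher ones, with no overlap. How many of all features separate in this way was not counted. Psme4 gave -0.06, 0.01 and 0.17, then -0.28 and -0.25, with the cocaine-in-Cy3 arrays lower.

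**Figure D4:**
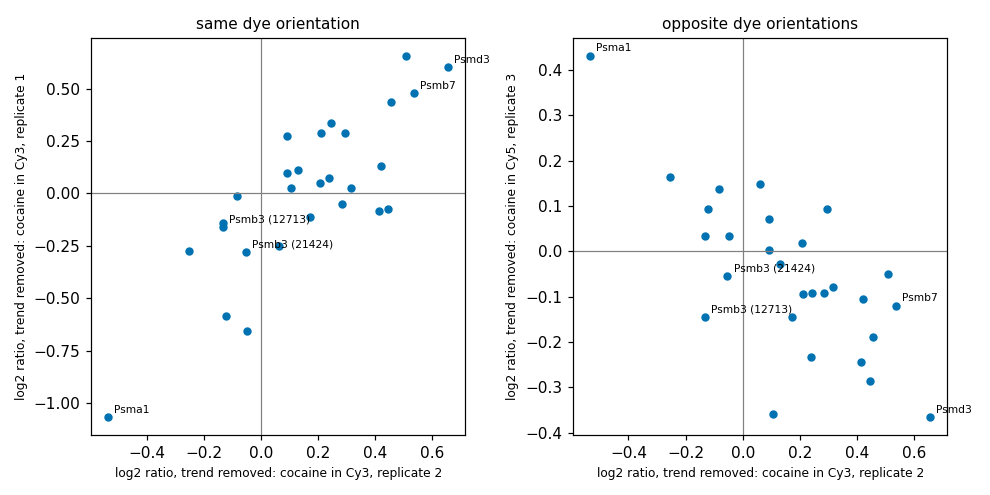
Log2 ratio with the brightness trend removed for the 28 subunit spots above background, cocaine-in-Cy3 replicate 2 (x axes) against cocaine-in-Cy3 replicate 1 (left) and cocaine-in-Cy5 replicate 3 (right). The points rise together on the left (r = 0.811) and fall on the right (r = -0.718), with Psma1 at one end and Psmd3 at the other.

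The dye orientations ranked the subunits in opposite ways. Across the 28 spots above background, the trend-removed ratios of the 2 cocaine-in-Cy3 arrays had a Pearson correlation of 0.811, and cocaine-in-Cy5 replicates 2 and 3 one of 0.498. Between orientations, the cocaine-in-Cy3 arrays correlated negatively with these 2, from -0.418 to -0.718. The 3549 gene features above background gave 0.535, 0.298 and from -0.134 to -0.718 in the same pairs. Cocaine-in-Cy5 replicate 1 stood apart, with correlations from -0.129 to 0.259 with the other arrays. These are descriptions across spots, which have the same probes on all arrays and belong to 1 complex, so no p is given.

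Psmd3 and Psma1 lay at the ends of this pattern. Over the 28 spots the median size of the dye coefficient was 0.15 and that of the treatment coefficient 0.11 with the trend removed. For the 3549 gene features above background these sizes were 0.13 and 0.095. Psmd3 gave trend-removed ratios of -0.97, -0.23 and -0.37 with cocaine in Cy5 and 0.60 and 0.66 with cocaine in Cy3. Its treatment coefficient was 0.05 with a standard error of 0.11, and its dye coefficient was -0.58. Psma1, given above, had a dye coefficient of 0.42. In limma's test of the dye coefficient, 0 of 67 subunit spots and 0 (0%) of all features passed once the trend was removed, and the smallest adjusted p was 0.14. In the deposited ratios 25 subunit spots passed, against 78.4% of all features. Of the 28 above background 0 passed, against 1.21% of the gene features above background.

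Genes that work with the proteasome were examined in the same fits. A list of assembly chaperones, shuttle receptors, deubiquitinases and regulators, chosen from their known roles, had 42 spots of 21 genes, 11 of them above background. It also held Sem1, a lid subunit whose symbol lies outside the rule for members. None of the 42 passed the threshold, where 0% of all features did, and 0 had an unadjusted p under 0.05 in the fit of the deposited ratios. With the trend removed 0 passed and 5 of the 42 had an unadjusted p under 0.05, against 6.7% of all features: Zfand5 (40899), Uchl5 and Nfe2l2 (34396) on the denominator side and Usp14 (20110) and Zfand5 (21403) on the other. These 5 spots were singled out after their values were seen, and limma's adjusted p was 0.673 for each. The median coefficient of the 42 was -0.14, and -0.03 with the trend removed. Of the 11 above background, 10 were then negative, against 62.2% of the gene features above background and 9 of the 28 subunit spots. The exception was Usp14, a deubiquitinase of the proteasome, at 0.39 with a standard error of 0.11. Its trend-removed ratios were 0.34, -0.22 and -0.34 with cocaine in Cy5 and 0.96 and 0.76 with cocaine in Cy3. Its deposited ratios changed sign with the dye orientation, and their coefficient was 0.01. Zfand5, a proteasome-binding protein, gave -1.67, -0.32 and 0.19 with cocaine in Cy5 and -1.30 and -0.48 with cocaine in Cy3, with a coefficient of -0.74 and a standard error of 0.32. Ubqln1, a shuttle for ubiquitinated proteins, gave -1.34, -0.22 and -0.19, then -0.63 and -0.11. Txnl1, a thioredoxin-like protein of the regulatory particle, gave -1.37, -0.10 and 0.30, then -1.28 and -0.48. Nfe2l1, the factor that drives subunit genes when proteasome activity is low, had a spot above background and a trend-removed coefficient of -0.0012 with a standard error of 0.07.

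The 3 cocaine-in-Cy5 arrays taken alone passed many features, but in them dye and treatment cannot be told apart. In limma's test of their mean against 0, 24 subunit spots had an adjusted p under 0.05, against 76.8% of all features. Of the 28 above background 0 did, against 53 of the 3549 gene features above background. The passing subunit spots were thus dim ones, among them those of Psmb11 and Psma8. With the trend removed 0 features passed, and 2509 had an unadjusted p under 0.05.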

How the data were processed

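RNA extracted with the PicoPure kit was hybridised on Agilent whole mouse genome arrays, per the labels' protocols, and scanned images were processed in Agilent Feature Extraction, per the submitters' processing notes. No version, background subtraction or scaling is stated there. The authors deposited 1 log2 ratio per feature and array. The members and lists were chosen with earlier results of these data known.

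Features were named through the platform annotation, 500 features at exactly 0 on all arrays were left out, and 43790 were tested with limma 3.58.1 (R 4.3.3; functions lmFit and eBayes), in a model with a treatment mean and a dye term and with Benjamini-Hochberg adjustment over all features at a threshold of 0.05. The labels name 1 cocaine-treated and 1 saline-treated mouse per array by code, and the cocaine codes of cocaine-in-Cy5 replicates 1 and 2 are alike but for a suffix. The p-values measure the spread between these arrays. The direction was read from 238 features without a gene and with large ratios: 184 changed sign between the orientations and 0 had the same sign throughout. The treatment of the numerator stays unknown.

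Brightness was recovered in Python 3.11.15 (NumPy 2.4.6, pandas 2.3.3) from the 3 cocaine-in-Cy5 columns, in which 2 to the power of the deposited log2 value was a fraction of whole counts or steps of 0.5 for at least 99.9% of the spots (relative tolerance 2e-14). The common factor lost in the fraction was weighed over these arrays (chance of a step of 0.5 0.2, spread 0.25 on the log2 scale, lowest signals 50 and 72 counts). This version and its lowest signals were chosen among 4 after the data were seen, on simulated signals, with the members' brightness known; the threshold of 7.5 was taken from earlier work on these data. Loess used a span of 0.3. The fits were tested on simulated data.

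Values per array are given for the 3 spots with the smallest unadjusted p in each stem and in the related genes, for Psmb8, Psmb9 and Psmb10, and for the brightest spot of Psmb5, Psmb6 and Psmb7. Alternatives were no dye term, centring, removal of the brightness trend, detected spots, the other sign convention, array weights, averaging of the 2 arrays that may share an animal, and each array left out.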

Additional observations from a re-analysis of the deposited data

Results flagged for a closer look

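The ratio of 32 of the 67 subunit spots was negative on all 3 cocaine-in-Cy5 arrays and positive on both cocaine-in-Cy3 arrays, so that the dye orientations moved in opposite directions. Among all features 80% did so. Of the 32 spots, 31 were not above background, and Psmb7 was the 1 above it. Gene features split alike: 24467 of the 28493 not above background did so, and 105 of the 3549 above it. The dye term of the fit tests the difference between the dye orientations. Its adjusted p was under 0.05 in limma for 25 subunit spots, against 78.4% of all features. The dye term passed for 0 of the 28 subunit spots above background, against 1.21% of the gene features above background. With the brightness trend removed it passed for 0 subunit spots and 0 features.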

How the results depend on the processing

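No subunit spot and no feature passed the treatment threshold under any alternative run except 1. Reading every array as Cy5 over Cy3 passed 34346 features and 25 subunit spots. This reading turns the dye term of the main fit into the treatment term, so its counts equal those of the dye term by construction. The median of the 67 spots, -0.23, was from -0.34 to -0.04 with 1 array left out, and was 0.04 with the brightness trend removed and from 0.02 to 0.05 with 1 array left out of that fit. The Psmb median moved from -0.27 to 0.17 with the trend drawn over detected spots; 7 Psmb spots were then left. The 33630 features that passed on the 3 cocaine-in-Cy5 arrays became 0 with the trend removed and 0 with median-centred arrays (488 at an unadjusted p under 0.05), and from 25113 to 37737 with 1 array left out. Array weights gave cocaine-in-Cy5 replicate 2 a weight of 31.8, at most 0.765 to the other arrays, and limma's weight estimate did not converge. The spots above background numbered from 22 to 33 under the other thresholds and recoveries, which were added after the data were seen, as was the trend removal with 1 array left out. The recovery of brightness limits all statements on dim spots, since a spot placed too low is corrected by too little. A normexp background correction and a slide block were not run, because the table holds ratios only and names no slides. The fits were paired within each array, since each ratio sets 1 cocaine-treated against 1 saline-treated mouse. No pairing between arrays was possible, because the replicate numbers used here only name arrays in order. The mouse codes in the labels share some letters and a digit across the dye orientations, but the labels do not say that these mark a litter, batch or day.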

Other observations

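In the fractions of the 3 cocaine-in-Cy5 columns few numerators lay just under 50 counts and many just above: from 182 to 314 spots per array had a numerator of 45 to 49, and from 3261 to 4421 one of 50 to 54. With the brightness trend removed, spots of 1 gene did not always share a sign of the treatment coefficient. The 2 spots of Psmd2, neither above background, gave -0.28 and 0.20, and the 3 spots of Psmd7 ran from -0.13 to 0.23. The 2 spots of Psmc6 gave -0.31 and -0.26, and the 3 spots of Psmd14 ran from -0.12 to -0.02.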
